A study of Homo sapiens with 2 samples.

Results

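RNA levels of 10 long non-coding genes that carry small nucleolar RNAs in their introns were compared in FTC-133 cells, an established human line from a follicular thyroid carcinoma. The genes are GAS5, SNHG1, SNHG3, SNHG5, SNHG6, SNHG7, SNHG8, SNHG12, SNHG15 and SNHG16, and they were chosen by name as non-coding snoRNA hosts. Earlier results of these data were known when they were chosen, so the shares of other genes set beside theirs are descriptions. All 10 had values among the 19362 genes of the deposited table. RNA sequencing was done on 1 library of cells transfected with a control siRNA and 1 library of cells transfected with siRNA against CHI3L1, which encodes a secreted chitin-binding glycoprotein. Both groups thus share the cell line and the siRNA transfection, and the sources used here give neither the siRNA sequences nor the time after transfection. Summed over the deposited genes, the control siRNA library held 15837449 reads and the CHI3L1 siRNA library 19467345. In these libraries 1 read was worth 0.0632 and 0.0513 CPM (counts scaled to a common library size). With 1 library per group there is no test and no replicate check, so each difference is between these 2 libraries. In a bulk library, fewer cells of a type and less RNA per cell cannot be told apart.

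Small nucleolar RNAs (snoRNAs) guide chemical modification of ribosomal RNA: box C/D snoRNAs guide ribose methylation and box H/ACA snoRNAs pseudouridylation. In human cells most are cut from introns, and the spliced exons of non-coding hosts such as GAS5 have no long open reading frame. Many host transcripts begin with a terminal oligopyrimidine (TOP) tract, the start also found on ribosomal protein mRNAs, whose translation depends on the kinase mTOR, and several spliced host RNAs are degraded by nonsense-mediated decay during translation.

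The RefSeq annotation of GRCh38 placed 35 snoRNA genes inside the 10 hosts, 25 named as box C/D (SNORD) and 10 as box H/ACA (SNORA). GAS5 held 11 of them (10 SNORD and 1 SNORA) and SNHG1 held 8, all SNORD. SNHG12 held 4, SNHG16 held 3, SNHG3, SNHG5 and SNHG7 held 2 each, and SNHG6, SNHG8 and SNHG15 held 1 each. The number of snoRNA genes per host thus ran from 1 to 11.

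The annotated starts of most of the hosts include a TOP tract. A TOP start was counted when an annotated transcript began with C followed by at least 4 bases that were each C or T, on the gene's own strand. In GENCODE release 29, 8 of the 10 hosts had at least 1 such transcript (21 of 129 transcripts, 16.3%), SNHG7 and SNHG15 being those without. For SNHG6, 3 of 5 transcripts had the tract, and its sequence is not shown. Genes averaging 1 CPM or more over both libraries are called measured here. The same held for 83.5% of 79 ribosomal protein genes, for 8.16% of the 1495 measured non-coding genes and for 16.3% of 14787 measured genes of any type with annotated transcripts. At the level of transcripts the shares were 20.4%, 2.56% and 2.60%. Of the 18 other measured non-coding hosts described further on, 6 (33.3%) had a TOP start, as did 8.84% of their transcripts. Hosts with many annotated transcripts have more chances to hold a match, and an annotated start is not a start measured in these cells. The first 30 bases of the TOP transcript nearest to the RefSeq start (for SNHG7 and SNHG15, of the transcript nearest to it) follow in GRCh38, with the tract in capitals, to set the starts with the tract beside the 2 without it.
GAS5 (chr1:173867960-173867989, minus strand): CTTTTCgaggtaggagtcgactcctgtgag
SNHG16 (chr17:76557769-76557798, plus strand): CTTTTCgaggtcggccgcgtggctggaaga
SNHG5 (chr6:85678704-85678733, minus strand): CTTTTacgtcggccttcgcgagcgtctggg
SNHG8 (chr4:118278758-118278787, plus strand): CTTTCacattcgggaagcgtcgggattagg
SNHG12 (chr1:28581844-28581873, minus strand): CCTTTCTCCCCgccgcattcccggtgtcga
SNHG3 (chr1:28506043-28506072, plus strand): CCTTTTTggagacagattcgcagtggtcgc
SNHG1 (chr11:62855450-62855479, minus strand): CTCCTgtctgcaggatttacgcgcacgttg
SNHG7 (chr9:136728155-136728184, minus strand): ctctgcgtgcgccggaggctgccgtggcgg
SNHG15 (chr7:44986645-44986674, minus strand): gtgcgcggcgcagcgcgcggcgtcagtctt

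The printed starts of SNHG5, SNHG7, SNHG12, SNHG8 and SNHG16 lay at most 5 bases from the RefSeq start, while those of SNHG15, SNHG3, SNHG1 and GAS5 lay 22, 100, 406 and 1056 bases from it. In the RefSeq promoter windows of GRCh38.p14, which matched 8 of the 10 hosts, the tract began exactly at the start in SNHG5 and SNHG12 and within 5 bases of it in 5 of 8 (also SNHG7, SNHG8 and SNHG16). Within 5 bases of the start, 74.4% of 78 ribosomal protein promoters and 21.1% of 35116 promoters of any gene held it. Exactly at the start, 60.3% of the ribosomal protein promoters and 4.07% of those of any gene held it, beside 25% of the 8 hosts.

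The siRNA target was lower in the library labelled with it. With the control siRNA, CHI3L1 had 2215 reads (140 CPM), and with siRNA against it 947 reads (48.6 CPM), which is a ratio of 0.347 with a 95% counting interval of 0.321 to 0.374.

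All 10 host genes were lower in the CHI3L1 siRNA library. Together they held 16934 reads (1071 CPM, 0.107% of the reads over all deposited genes) with the control siRNA. With siRNA against CHI3L1 they held 10134 reads (520 CPM, 0.0521%), a ratio of 0.485 (0.474 to 0.498). On the log2 scale with 1 CPM added to each value, 9 of 10 were at least 1.5-fold lower and 0 were higher, with a median log2 fold of −0.83 and a range from −1.72 to −0.56. Of all 14815 measured genes, 13.4% reached 1.5-fold lower and 7.73% higher, and the median was 0.01. A log2 fold below 0 was found in 7235 of them. The ranges printed with ratios are 95% intervals computed from the reads by the exact Clopper-Pearson method and cover counting error only. Where a pair of values is given, the control siRNA library comes first. The counting interval lay wholly below the 1.5-fold line for 8 of the 10, against 8.4% of all genes.

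**Figure D1:**
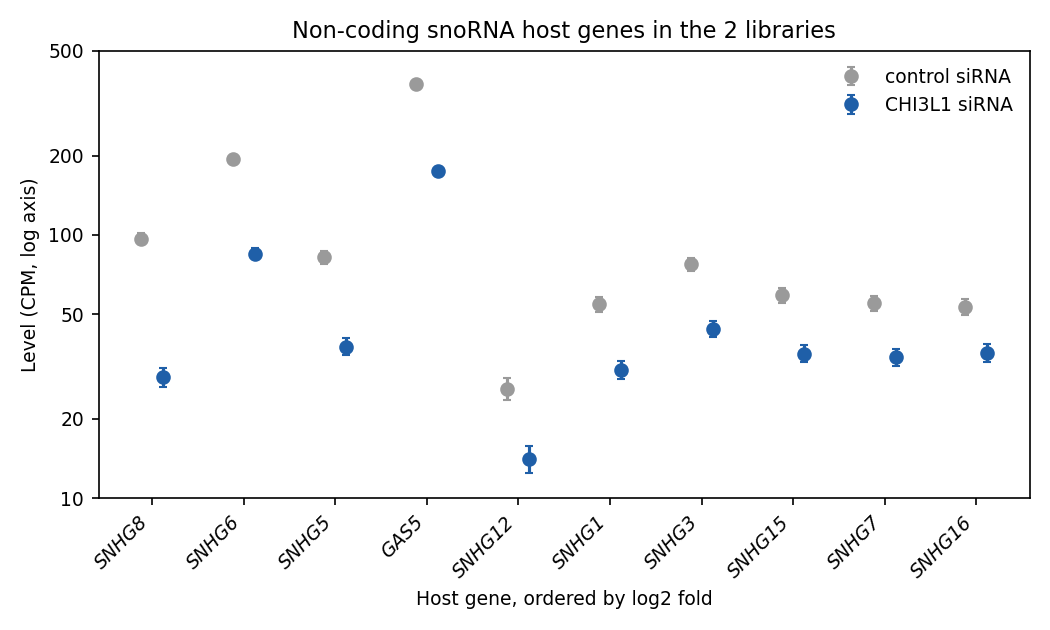
Level of each host gene (CPM, log axis) in the control siRNA library (grey) and the CHI3L1 siRNA library (blue), 1 library each, with exact 95% Poisson intervals for counting error only. Genes are ordered by log2 fold, from SNHG8 to SNHG16, and every blue point lies under its grey point.

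At 2-fold, 4 of the hosts were lower, where 4.41% of all measured genes were. SNHG8 (ENSG00000269893, chromosome 4, 118278709 to 118279823, plus strand), the host of the H/ACA guide SNORA24, stood at 96.8 CPM (1530 reads) with the control siRNA and 28.7 CPM (560 reads) with siRNA against CHI3L1. Its ratio was 0.297 (0.269 to 0.327), the lowest of the 10, and its log2 fold ranked 5 from the bottom among the 1495 measured non-coding genes. SNHG6 (ENSG00000245910, chromosome 8, 66921684 to 66926398, minus strand), which carries SNORD87, stood at 194 and 84.8 CPM (ratio 0.437, 0.412 to 0.465).

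SNHG5 (ENSG00000203875, chromosome 6, 85660950 to 85678748, minus strand) is the host of SNORD50A and SNORD50B. It stood at 82.0 CPM with the control siRNA and 37.6 CPM with siRNA against CHI3L1, a ratio of 0.459 (0.419 to 0.503). GAS5 (ENSG00000234741, chromosome 1, 173863900 to 173868882, minus strand), named for its rise in growth-arrested cells and known as a decoy for the glucocorticoid receptor, had the most reads of the 10, 5905 and 3405. It stood at 373 and 175 CPM (ratio 0.468, 0.448 to 0.488), and made up 34.9% of the hosts' reads with the control siRNA and 33.6% with siRNA against CHI3L1. The other 9 hosts held the rest of the reads in both libraries.

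The middle of the order was SNHG12, SNHG1 and SNHG3. SNHG12 (chromosome 1, 28578538 to 28583132), which like GAS5 holds guides of both classes, had the fewest reads, 412 and 274, and stood at 26.1 and 14.1 CPM (ratio 0.539, 0.461 to 0.630). SNHG1 (chromosome 11, 62851988 to 62855914), known as the U22 host, had 54.5 and 30.7 CPM, with a ratio of 0.564 (0.507 to 0.626). SNHG3 (chromosome 1, 28505980 to 28510892), which carries SNORA73A and SNORA73B (U17), stood at 77.1 and 43.9 CPM (ratio 0.569, 0.521 to 0.622). The counting intervals of these 3 ratios overlap.

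SNHG15, SNHG7 and SNHG16 had the smallest differences. SNHG15 (chromosome 7, 44983023 to 44986961), the host of SNORA9, stood at 58.9 and 35.4 CPM (ratio 0.601, 0.543 to 0.663). SNHG7 (chromosome 9, 136721366 to 136728184), the host of SNORA17A and SNORA17B, stood at 55.0 and 34.3 CPM (ratio 0.624, 0.563 to 0.690). SNHG16 (chromosome 17, 76557766 to 76565348), the host of SNORD1A, SNORD1B and SNORD1C, stood at 53.1 and 35.6 CPM. Its ratio was 0.670 (0.605 to 0.742) and its log2 fold of −0.56 did not reach 1.5-fold. It passed 1.5-fold when values were centred on the median of genes averaging 50 CPM or more. There, 10 of 10 hosts were lower, against 17.4% of all measured genes. Along the whole order, only SNHG8 was separated from its next neighbour, SNHG6, by intervals that do not overlap.

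Mature snoRNAs are short, and a TruSeq RNA library is not made to capture them. Of those inside the 10 hosts, values were analysed for SNORA73B, at 62 and 34 reads (3.92 and 1.74 CPM, ratio 0.445, 0.284 to 0.686), and for SNORD99 inside SNHG12, at 13 and 6 reads (ratio 0.374, 0.117 to 1.06). The levels above are therefore those of the host RNAs and say nothing of the mature snoRNAs.

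Some hosts share sequence or a start region with another gene, and no source used here gives the strand setting of the counting. SNHG3 shares 242 of its 4088 annotated exon bases with RCC1 on the same strand, and the annotated starts lie 37 bases apart. RCC1, a chromatin-bound exchange factor for the GTPase Ran, stood at 107 and 70.9 CPM (ratio 0.662, 0.616 to 0.711), so reads of this pair are uncertain. Without SNHG3, 8 of 9 hosts were at least 1.5-fold lower and the median log2 fold was −0.85.

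Overlaps on the opposite strand involved genes with few reads, apart from TRNAU1AP, which shares 8 bases with SNHG12 (37.0 and 28.5 CPM). MCMDC2, which overlaps 29.3% of the exon bases of SNHG6, had 29 and 54 reads. DIPK1B, over 25.2% of SNHG7, had 81 and 47 reads. The gene AC015802.6, over 30.6% of SNHG16, had 14 and 6 reads, and GAS5-AS1, over 1.16% of GAS5, had 18 and 20. The hosts SNHG6, SNHG7, SNHG16 and GAS5 had 3067, 869, 840 and 5905 reads with the control siRNA.

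Genes that start close to a host on the opposite strand differed among themselves. SLC3A2, the heavy chain of several amino acid transporters, starts 188 bases from SNHG1 and was not lower, at 87.7 and 120 CPM (ratio 1.37, 1.28 to 1.47). ZBTB37, a zinc finger gene that starts 800 bases from GAS5, stood at 17.2 and 18.4 CPM (ratio 1.07, 0.909 to 1.25). The antisense gene AC015802.4, which starts 83 bases from SNHG16, averaged under 1 CPM and so does not count as measured. It had 10 and 3 reads (ratio 0.243, 0.0430 to 0.945).

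Other snoRNA hosts listed as non-coding were also lower. Of 24 further hosts listed by name, 18 were measured, and 10 of these were at least 1.5-fold lower, 0 higher and 8 between, with a median log2 fold of −0.67. SNHG32 (C6orf48) is protein-coding in GENCODE release 29, and without it 10 of 17 were lower. All 18 log2 folds were below 0, as were those of 998 of the 1495 measured non-coding genes. After the correction for transcript length and GC content described further on, 5 were lower, SNHG27 was higher and the median was −0.35. SNHG29 (LRRC75A-AS1 in GENCODE release 29) had the most reads and stood at 472 and 193 CPM (ratio 0.409, 0.393 to 0.425). ZFAS1, host of the SNORD12 guides, stood at 106 and 47.6 CPM (0.450, 0.415 to 0.488), and SNHG19 at 34.7 and 15.2 CPM (0.440, 0.380 to 0.507).

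MEG8, a maternally expressed imprinted RNA, had a log2 fold of −1.07, EPB41L4A-AS1 of −0.86, SNHG26 of −0.84, SNHG4 of −0.75, SNHG18 of −0.70, SNHG20 of −0.69 and SNHG30 of −0.64. Those between the 1.5-fold lines were SNHG10 and SNHG21 (both −0.53), DANCR (−0.26), SNHG32 (−0.24), SNHG17 (−0.14), SNHG14 (−0.06), SNHG27 (−0.02) and SNHG11 (−0.01). SNHG14, the long imprinted transcript that carries the Prader-Willi region snoRNAs, had 1964 and 2321 reads, and its counting interval held a ratio of 1 (0.902 to 1.02). The intervals of SNHG17 (0.782 to 1.05), SNHG11 (0.801 to 1.22) and SNHG27 (0.551 to 1.76) held it too.

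**Figure D2:**
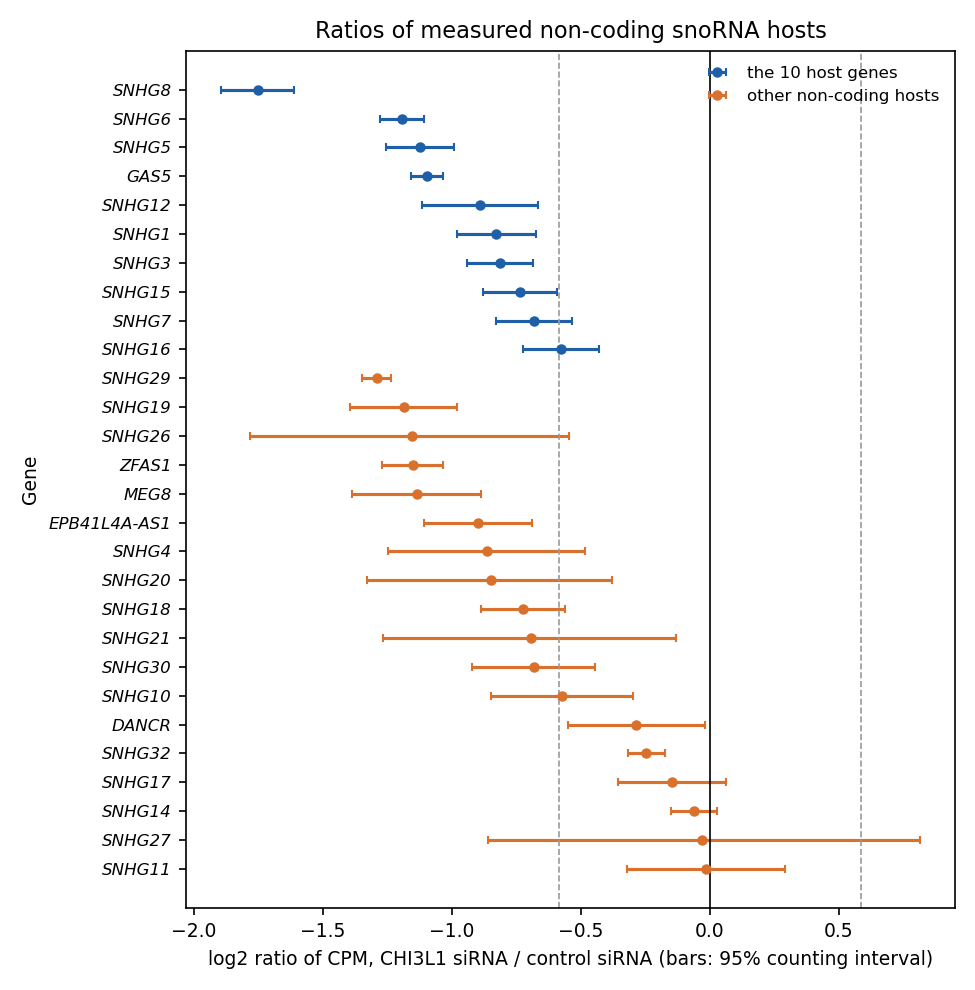
Log2 ratio of CPM (CHI3L1 siRNA over control siRNA, nothing added) for the 10 host genes (blue) and 18 further hosts listed as non-coding (orange), with 95% counting intervals; dashed lines mark 1.5-fold. The blue points run from a ratio of 0.297 (SNHG8) to 0.670 (SNHG16), while the orange points reach up to 0.989 (SNHG11).

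More non-coding genes were lower than higher as deposited, so the hosts' count is given beside theirs. Of the 1495 measured non-coding genes, 19.1% were at least 1.5-fold lower and 2.61% higher, with a median log2 fold of −0.19. Adding 1 CPM pulls rarely read genes toward 0, and the hosts' means ran from 20.1 to 274 CPM. Among the 87 non-coding genes with a mean in that range, which include the 10, 43.7% were at least 1.5-fold lower and 0 were higher. With the 10 hosts left out this was 29 of 77 (37.7%, median −0.32), and with all listed hosts left out 25 of 71 (35.2%). A log2 fold below 0, found in all 10 hosts, was also found in 63 of those 77 genes and in 998 of the 1495. Protein-coding genes in the same range of means were lower in 13.1% of 7275 cases.

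In a list of well-known non-coding genes without an annotated snoRNA inside, 6 of 24 were at least 1.5-fold lower and 0 higher, and the median was −0.14. UCA1 had 48 and 22 reads (log2 fold −0.92), and THAP9-AS1 (−0.88), DLEU2 (−0.71) and MEG3, another imprinted RNA (−0.69), were the next lowest. Among the rest, the nuclear RNAs MALAT1 and NEAT1 had log2 folds of −0.31 and −0.13, and TUG1 was higher by 0.41 on that scale.

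Transcript length moved with the difference between these libraries. The longest annotated basic transcript of the 10 ran from 648 nt (SNHG6) to 3607 nt (SNHG16). The 4 hosts that were at least 2-fold lower were the 4 shortest: SNHG6, SNHG8 (672 nt), GAS5 (1007 nt) and SNHG5 (1032 nt). Of 524 non-coding genes of at most 1000 nt, 25.2% were at least 1.5-fold lower (median −0.28), of 336 above 1000 and up to 2000 nt 17.0% (median −0.21), and of 635 longer ones 15.3% (median −0.11). In the same length classes the hosts had 2 of 2, 4 of 4 and 3 of 4 lower. Protein-coding genes of at most 1000 nt were lower in 54.1% of 438 cases.

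Values after subtracting a trend in transcript length and GC content are therefore given as well. With the trend fitted to protein-coding genes, 7 of 10 hosts were at least 1.5-fold lower (7.87% of all genes) and the median was −0.64. SNHG8 then stood at −1.03, SNHG15 at −0.82 and SNHG12 at −0.71. SNHG5 (−0.56), SNHG1 (−0.43) and SNHG6 (−0.28) lay inside 1.5-fold, and GAS5 was at −0.59. That trend overshot in short non-coding genes, whose median at most 1000 nt became 0.44, and the direction of the whole class turned: 8.09% of the 1495 non-coding genes were then lower and 18.7% higher, with a median of 0.14. Of the 77 other non-coding genes in the hosts' range of means, 24.7% were lower after it. With the trend fitted to non-coding genes, 9 of 10 were lower (10.4% of non-coding genes) and the median was −0.72, from −1.45 (SNHG8) to −0.50 (SNHG16). Of the same 77 genes, 32.5% were lower by that trend. The trend fitted to non-coding genes took up 6.6% of the variance in log2 fold among the genes it was fitted to. The trend fitted to protein-coding genes took up 32.2% among its own. SNHG6 was the host whose value depended most on the choice, at −1.18 as deposited, −0.28 and −0.79.

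**Figure D3:**
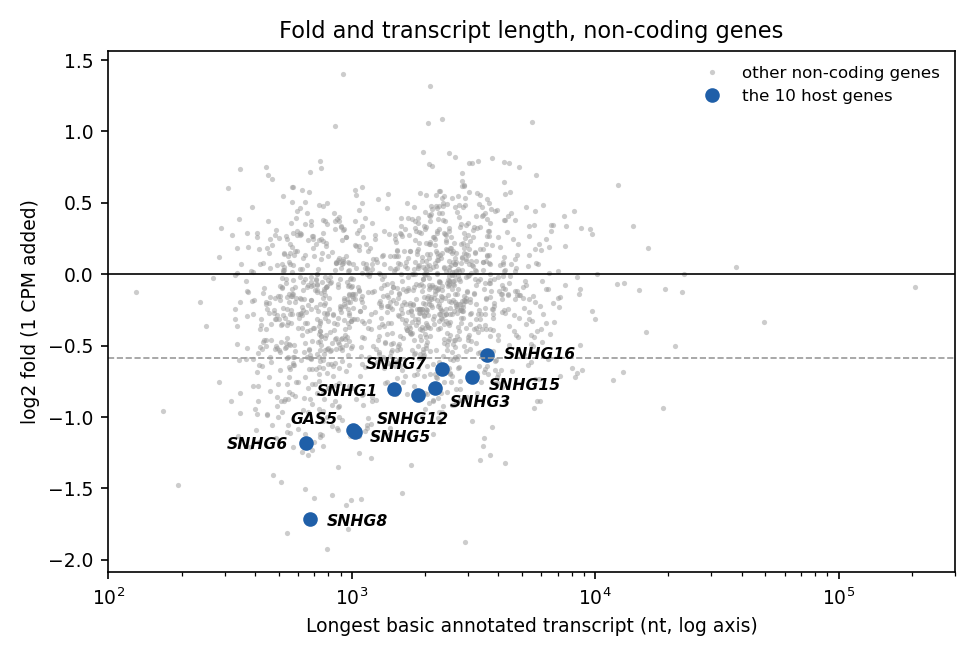
Log2 fold (1 CPM added) against the length of the longest basic annotated transcript (nt, log axis) for measured non-coding genes, with the 10 hosts in blue and 1.5-fold lower as a dashed line. The shortest hosts, SNHG6 and SNHG8, lie among the lowest points, and the longest, SNHG16, lies just above the dashed line.

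Ribosomal protein genes, most of which share the TOP start, were also mostly lower. Of 79, 60 were at least 1.5-fold lower and 0 higher, with a median of −0.87 (−0.52 after the coding-gene correction, 35 lower). RPL34 stood at 1459 and 351 CPM, RPL7 at 5331 and 1343 CPM, RPL30 at 1826 and 473 CPM and RPL31 at 2388 and 647 CPM. Ribosomal protein genes have many pseudogene copies, so their reads are uncertain. A list of coding TOP genes, mostly of translation factors, had 6 of 19 lower, 0 higher and 13 between, with a median of −0.29 (5 lower and 1, VIM, higher after the correction). FAU, a ribosomal protein gene, is in both lists, and without it 5 of 18 were lower, with a median of −0.21. EIF3E, a subunit of initiation factor eIF3, stood at 1230 and 350 CPM, FAU at 436 and 195 CPM, the elongation factor subunit EEF1B2 at 410 and 187 CPM and TPT1 at 1579 and 796 CPM. Others in that list lay above 0, among them EEF2 (log2 fold 0.32) and PABPC1 (0.35).

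Among protein-coding snoRNA hosts outside the ribosome, the share of lower members was near that of all genes. Of 26, 4 were at least 1.5-fold lower (15.4%), 1 was higher and 21 lay between, with a median of −0.19. The share lower was 13.4% over all measured genes and 12.4% over protein-coding ones. EEF1B2 (−1.13), TPT1 (−0.99), TAF1D (−0.89) and RCC1 (−0.59) were the lower members, and PPAN, a ribosome biogenesis gene, was the higher one (0.61). The list overlaps the TOP list in EEF1B2, EEF2, RACK1 and TPT1, and the list of core proteins of snoRNA particles in DKC1 and NOP56.

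Genes of the snoRNA-protein particles showed smaller median differences than the 10 hosts. Of 9 core proteins, 2 were lower (22.2%), 0 higher and 7 between (median −0.33). Over all measured genes 13.4% were lower and the median was 0.01. After the correction 0 core proteins were lower and GAR1 was higher. The 2 lower as deposited were NOP58 of box C/D particles, at 78.4 and 44.6 CPM, and NOP10 of box H/ACA particles, at 98.6 and 57.6 CPM. RRP9 stood at 34.8 and 23.1 CPM, fibrillarin (FBL), the methyltransferase, at 173 and 169 CPM and GAR1 at 26.2 and 34.4 CPM. Of 13 genes listed as assembly factors, 4 were lower (30.8%), 0 higher and 9 between (median −0.24). After the correction ZNHIT3 and BCCIP were lower. The 4 listed genes lower as deposited were ZNHIT3 (76.3 and 27.0 CPM), BCCIP (84.9 and 38.5 CPM), RPAP3 (53.2 and 28.0 CPM) and TAF9 (107 and 68.8 CPM).

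Nonsense-mediated decay factors and regulators of TOP mRNAs were listed because both pathways act on host RNAs. Of 20 decay factors, 2 were lower and 2 higher (10% each), with a median of 0.20. Over all measured genes the shares were 13.4% lower and 7.73% higher. The exon junction proteins MAGOH (122 and 45.3 CPM) and MAGOHB (30.5 and 15.2 CPM) were lower, and NBAS (32.7 and 57.4 CPM) and the kinase SMG1 (94.9 and 144 CPM) higher, and after the correction MAGOH was lower and 0 were higher. The helicase UPF1 stood at 125 and 152 CPM, inside 1.5-fold. Of 15 TOP regulators and related RNA-binding proteins, 1 was lower and 1 higher (6.67% each), with a median of 0.00. The former was LARP7, which binds the 7SK RNA (147 and 41.6 CPM), and the latter RPTOR, the raptor subunit of mTOR complex 1 (29.9 and 46.1 CPM). After the correction LARP7 was lower and 0 were higher. LARP1, which binds TOP starts, stood at 170 and 242 CPM, MTOR at 81.1 and 102 CPM, TIA1 at 80.4 and 53.9 CPM and SSB at 97.1 and 66.2 CPM.

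**Figure D4:**
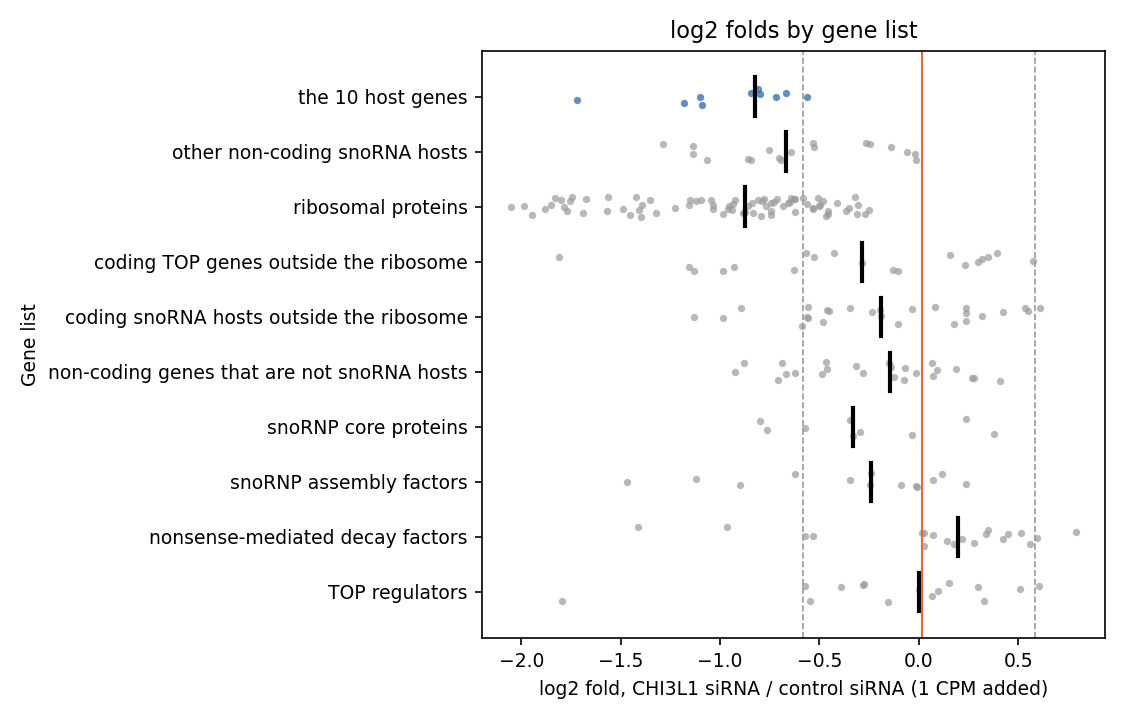
Log2 fold (1 CPM added) of each measured gene in 10 gene lists, with each list's median as a black bar, the median of all genes (0.01) as an orange line and 1.5-fold as dashed lines. The 10 hosts (blue) and the ribosomal proteins have medians of −0.83 and −0.87, and the decay factors a median of 0.20.

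The cell markers matched the label in part. Of the 10 thyroid markers listed, 8 had values and 5 were measured. The thyroid factors NKX2-1 (88.6 and 112 CPM) and PAX8 (82.8 and 71.2 CPM) were present, thyroglobulin (TG) had 10 and 14 reads, and SLC5A5 was not analysed here. The thyroid list summed to 211 and 238 CPM, the 5 epithelial markers to 86.9 and 86.4 CPM, and the 5 fibroblast markers to 619 and 795 CPM, of which THY1 gave 558 and 745. The endothelial markers summed to 11.3 and 9.75 CPM, with 3 of 4 analysed. Of 6 immune markers, PTPRC alone was analysed, at 12 and 8 reads. The part of these markers in the hosts' differences was not tested.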

How the data were processed

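The authors deposited 1 table of normalised values per Ensembl gene for both libraries, made from 1 ug of total RNA with a TruSeq RNA kit, per the labels' protocols. GRCh38 and the tools HISAT2, featureCounts, Trimmomatic, FastQC and MultiQC are listed, without versions or roles, per the submitters' processing notes. Not given in the sources used here are the annotation, normalisation tool, filter and strand setting. The deposited unit is CPM, from the values: after an offset of 0.001 read, 100% of values lay within 0.05 read of a whole multiple of what 1 read is worth. The larger of a gene's 2 read numbers was never under 6. A count of 0 allows 3 reads, or 0.190 and 0.154 CPM.

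Ensembl identifiers were matched to symbols for 19360 genes. Coordinates, transcripts and their sequences came from GENCODE release 29 (19315 genes). Promoter windows and snoRNA names came from RefSeq (GRCh38.p14). Folds are log2 ratios with 1 CPM added, for genes averaging 1 CPM or more; calls are at 1.5-fold, without p-values. Length and GC trends (splines, 5 degrees of freedom per term, patsy 1.0.2) used the longest basic transcript, had for 99.8% of genes. Other pseudocounts, filters, thresholds and scalings (TMM, centring) were tried. The steps were tested on simulated data. Python 3.11.15 and scipy 1.17.1 were used. The host genes and gene lists were chosen with earlier results of these data known. Named are all hosts, up to 4 genes per other list with the largest absolute log2 fold, and overlapping or neighbouring genes (starts within 1000 bases). The named genes FBL, UPF1, LARP1, MTOR, EEF2, PABPC1, VIM, MALAT1, NEAT1 and TUG1 were added after their values were seen.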

Additional observations from a re-analysis of the deposited data

How the results depend on the processing

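The non-coding trend, the removal of SNHG3 and the range of means were alternatives chosen after seeing the data. All 60 host values under 6 alternatives to the deposited log2 folds stayed below 0, from −1.82 to −0.28. Another pseudocount cannot change a sign, and TMM and centring only lowered each log2 fold, by 0.001 and 0.10. Of these alternatives, only the length and GC trends could have turned a host value. The count of 9 hosts at least 1.5-fold lower ran from 7 (10 CPM added, or the length and GC correction) to 10 (centring), and was 4 at 2-fold. CHI3L1 had a log2 fold of −1.36 with 10 CPM added and −1.35 after the correction. Of all genes, 1988 were lower and 1145 higher. These counts became 1011 and 492 with 10 CPM added, 654 and 153 at 2-fold, 1244 and 530 by counting intervals, 286 and 39 among non-coding genes and 38 and 0 among those in the hosts' range. The correction left 1163 lower genes. Centring on the median of genes averaging 50 CPM or more gave 2572 lower (17.4%) and 686 higher genes. The share of higher genes among those past 1.5-fold was 36.5% as deposited, 21.1% with centring and 50.7% after the correction. No paired analysis was possible because each group has 1 library. Depth limits the values of genes with under 30 reads in each library. Among them are SNORD99, SNHG27, GAS5-AS1, AC015802.4, AC015802.6, TG and PTPRC.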

Other observations

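A wider set of hosts was taken from annotation, as measured genes with a GENCODE snoRNA gene inside them on the same strand. This grouping was made after the data were seen, and it finds 9 of the 10 hosts described, all but GAS5, whose snoRNAs came from RefSeq. Among non-coding genes it adds 24, of which 16 are in the list of other hosts already described, and 10 of the 11 that were at least 1.5-fold lower are among those 16. Of the 8 genes outside both host lists, 1 (UBA6-DT, log2 fold −1.30) was lower, 1 (ENSG00000285877, 0.85) was higher and 6 lay between, with a median of −0.43. These names were chosen after their values were seen. Of 1460 non-coding genes outside the lists without a snoRNA gene inside, 18.2% were lower, with a median of −0.18. Ribosomal protein genes were lower with or without a snoRNA inside, 21 of 28 and 39 of 51, with medians of −0.76 and −0.94. Other protein-coding genes with a snoRNA inside were lower in 19 of 204 cases (9.31%), and those without in 12.1% of 12405.

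Annotated TOP starts were also tallied outside the host lists and the ribosome. Of 108 non-coding genes with a TOP start outside both host lists, 19.4% were at least 1.5-fold lower (median −0.24), against 18.1% of 1360 without one (median −0.17). Of 2188 protein-coding genes outside the ribosome with a TOP start, 9.87% were lower, against 12.5% of 10421 without one. These shares are descriptions of 2 libraries, with no test.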
